A study of Schizosaccharomyces pombe
Saccharomyces cerevisiae with 24 samples.

Results

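The 53 genes described here are factors that build ribosomes in the budding yeast Saccharomyces cerevisiae. They were chosen by their systematic identifiers as nucleolar and pre-ribosome assembly factors of the NOP, UTP, DBP, NOG and RPF families and their relatives, not by a threshold on a measured value. All 53 were rows of the deposited tables, which held 7127 genes. All 53 were also among the 6069 genes kept by the filter on low counts (reads in 50% or more of the 24 libraries), and each had reads in every library, 1 read being the lowest count. The tables do not pair the identifiers with gene names, and no annotation of this species was used here, so the members are given by identifier and their single roles are not stated.

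Ribosome assembly starts in the nucleolus, where RNA polymerase I makes the long precursor of the ribosomal RNAs. Assembly factors bind this precursor as it is made, guide its modification, folding and cleavage, help the ribosomal proteins to join it, and leave again before the finished subunits work in the cytoplasm. In budding yeast the genes for these factors are known as a large, jointly regulated group whose expression follows growth and nutrient supply.

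The cells were W303 diploid yeast grown in YEP medium with 2% raffinose and then given galactose, as in the competition experiments of the same study, in which galactose induces a tagged competitor protein. After 20 or 60 min in galactose, a part of each culture received 4-thiouracil (4sU) for 6 min and a matched part did not, so that RNA made during the pulse carried a thiol group to which biotin could be attached. Fission yeast (Schizosaccharomyces pombe) cells, all of them labeled with 4sU, were mixed in at 1 cell to 8 budding yeast cells as a spike-in. Biotin-carrying RNA was bound to streptavidin beads (labeled fraction), the unbound RNA was kept (unlabeled fraction), and RNA from before the separation gave the total fraction. These 3 fractions, the 2 times and the presence or absence of 4sU made 12 groups with 2 biological replicates each. One strain background was used throughout, the flasks of a replicate came from one culture, and bulk RNA cannot tell fewer cells from less RNA per cell.

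Raw gene counts summed to between 1073888 and 38373886 per library, with a median of 5169447.5. Values below are S. pombe-normalized counts, the raw count divided by the S. pombe reads of the library in units of 2000000. One library stood apart. The library of labeled RNA without 4sU at 20 min, replicate 1, summed to 3259247 normalized counts, against 223290 to 328641 in the other 3 libraries of labeled RNA without 4sU, and 41.4% of its raw counts lay in the row Q0158. It enters a single test between groups below, which is given with and without it.

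In total RNA with 4sU, the highest mean normalized counts among the 53 genes were 2153 ± 506 (SD, n = 4) for YLR175W and 1694 ± 207 for YMR229C. The lowest were 23.6 ± 2.69 for YHR148W and 66.7 ± 10.2 for YGR128C. These levels are not corrected for gene length and order the genes by reads only. The members took 0.698 to 0.908% of all counts in total RNA with 4sU. Their share was 1.70 to 1.99% in labeled RNA and 0.180 to 0.261% in unlabeled RNA of the same cultures, so the 3 ranges did not overlap. The row Q0158 alone took 26.0 to 30.9% of total RNA and 2.05 to 3.07% of labeled RNA with 4sU, and these shares of all counts move with it.

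**Figure D1:**
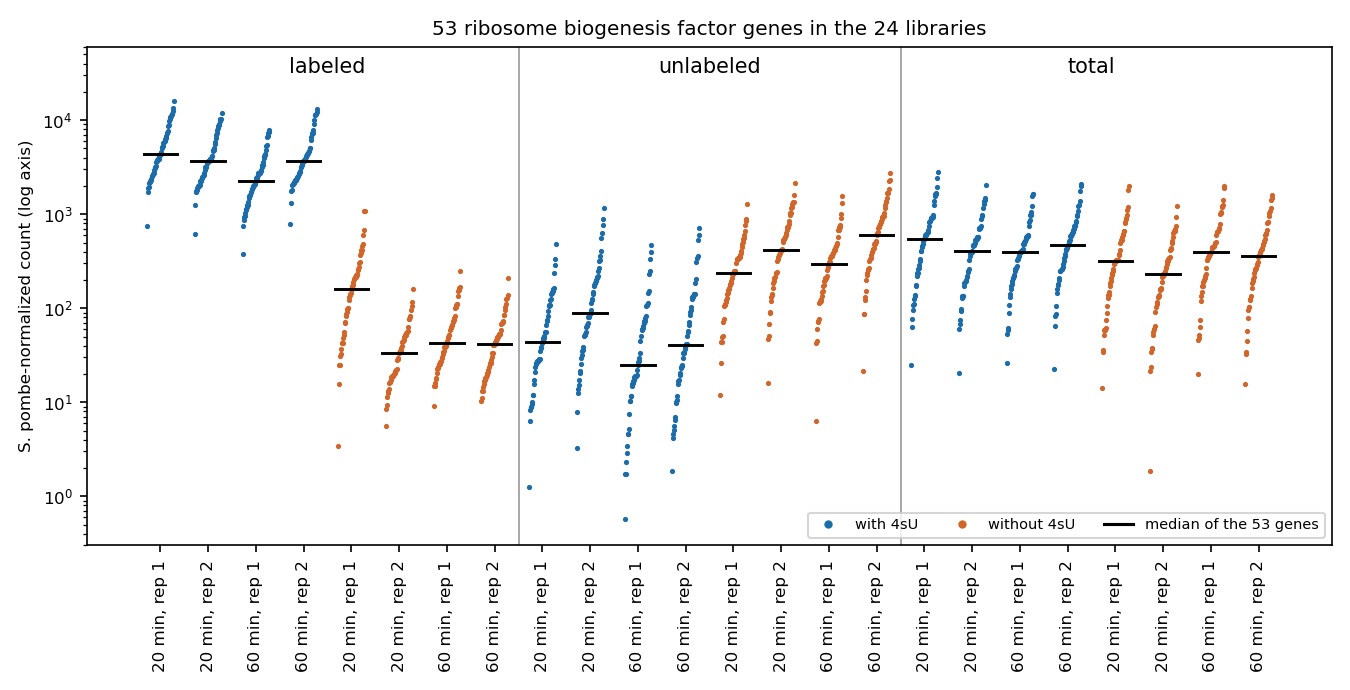
S. pombe-normalized counts (log axis) of the 53 genes in each of the 24 libraries, by fraction, time and replicate; each point is a gene and each bar the median of the 53. The medians lay between 2272 and 4377 in labeled RNA with 4sU, between 33.7 and 161 in labeled RNA without it, and between 24.8 and 88.0 in unlabeled RNA with 4sU.

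The pull-down without 4sU measures how much of these transcripts stuck to the beads without a label. All 53 genes were higher in labeled RNA with 4sU than without it, by a median log2 difference of 5.92 (range 5.18 to 6.73). Over all genes tested, 98.8% were called higher and the median was 5.51, so the members did not stand out by their count. YOL077C measured 42.5 and 19.2 without 4sU at 20 min and 32.5 and 30.6 at 60 min. With 4sU it measured 3851 and 3496 at 20 min and 2059.6 and 3905 at 60 min. Its lowest value with 4sU was far above its highest value without, and its fitted log2 difference was 6.73 ± 0.56 (SE; adjusted p = 1.96e-06, edgeR quasi-likelihood test with Benjamini-Hochberg adjustment over all genes, as for all adjusted p-values that follow). YMR290C, with 15.8 to 40.3 without 4sU and 2064 to 3289 with it, gave 6.64 ± 0.57 (adjusted p = 1.96e-06).

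The smallest differences belonged to YLR175W, at 5.18 ± 0.81 (adjusted p = 6.64e-05), and YLR129W, at 5.25 ± 0.81 (adjusted p = 5.77e-05). YLR175W measured 1077 in the library that stood apart and 106, 153 and 110.4 in the other 3 libraries without 4sU. YLR129W measured 684 there and 54.1, 99.8 and 67.6 in the others. Without that library all 53 genes were again higher, by a median of 6.47. Per replicate and time, the median member was 34.0-fold higher with 4sU in replicate 1 at 20 min, which uses that library. It was 110.6-fold higher in replicate 2 at 20 min, and 49.3-fold and 96.1-fold higher in replicates 1 and 2 at 60 min. These folds are on the spike-in scale. With TMM scaling, which sets the bulk of genes equal between the libraries, no member was called (15 higher at an unadjusted p under 0.05, as were 10.1% of all genes) and the median of all genes was -0.03.

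The ratio of labeled to total RNA compares a transcript's place among RNA made in the pulse with its place among all RNA. The spike-in RNA is itself bound by the beads, so the fractions have no shared scale and this ratio was fitted with TMM scaling, relative to the other genes. The 53 genes fell on both sides of the typical gene. Of them, 18 were higher in labeled RNA (log2 0.31 to 1.80) and 20 were lower (-1.19 to -0.27), against 34.7% and 30.4% of all genes tested, and the other 15 did not pass the threshold. The member median was -0.11, with 0.03 over all genes.

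At the high end, YGR128C measured 62.7 and 60.1 in total RNA at 20 min and 62.0 and 81.9 at 60 min. In labeled RNA it measured 2676 and 1997 at 20 min and 1199 and 2313 at 60 min. Its ratio in single flasks lay between percentiles 92.9 and 96.1 of all genes, and its fitted log2 difference was 1.80 ± 0.13 (adjusted p = 2.33e-06). YDL014W gave 1.67 ± 0.22 (adjusted p = 9.14e-05), from 58.3 to 77.0 in total RNA and from 861 to 2747 in labeled RNA.

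At the low end, YHR072W-A measured 905 and 541 in total RNA at 20 min and 570.3 and 588 at 60 min. In labeled RNA it measured 2663 and 2529 at 20 min and 1941 and 2481 at 60 min. All 4 flasks with 4sU placed it between percentiles 6.82 and 11.1 of all genes, and its fitted log2 difference was -1.19 ± 0.11 (adjusted p = 1.08e-05). YPL211W followed at -0.89 ± 0.09 (adjusted p = 2.15e-05), with 396 to 630.5 in total RNA and 1597 to 2552 in labeled RNA. In single flasks the members thus lay between percentiles 6.82 and 97.6, which is much of the range that all genes cover by definition.

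The order of the members was kept between replicates. Across the 53 genes, Pearson's r of the log2 ratio between replicates was 0.953 (Spearman's rho 0.952) at 20 min and 0.919 (0.892) at 60 min; genes are not independent replicates, and each ratio shares its culture. Of the members, 19 lay above the median gene in all 4 flasks with 4sU, 23 lay below it in all 4, and 11 lay on both sides. The 4 flasks came from 2 replicate cultures, each sampled at both times. The share of all genes on one side in all 4 was not counted. The ratio ran against the level in total RNA (r = -0.770, rho = -0.730), which is its own denominator.

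**Figure D2:**
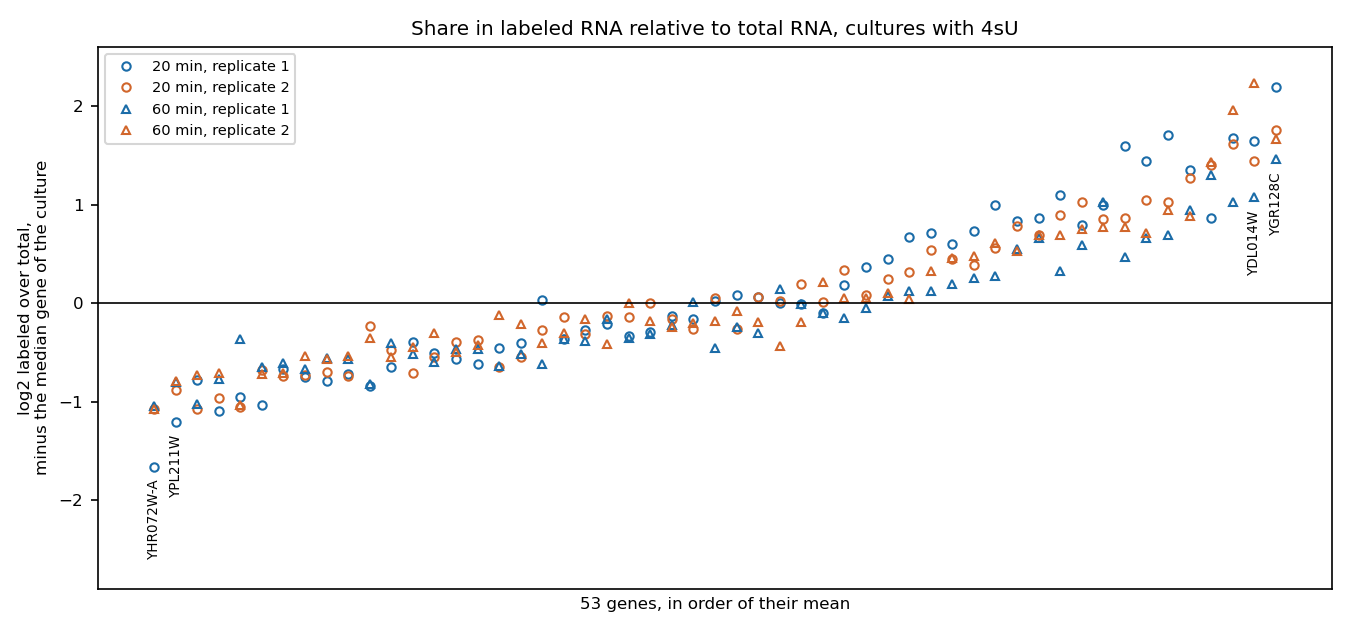
Log2 of labeled over total RNA for the 53 genes, minus the median gene of the same flask (0 line), in the 4 flasks with 4sU. Genes are ordered by their mean. The means ran from -1.22 for YHR072W-A to 1.77 for YGR128C, and the 4 symbols of a gene lay closer together than that range.

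Time in galactose did not move the labeled to total ratio of any member past the threshold. No member was called by edgeR or DESeq2, and edgeR called 0.0494% of all genes higher and none lower. At an unadjusted p under 0.05, 2 members were lower with edgeR, without a share of all genes at that threshold. The member median of the change from 20 to 60 min was -0.12, with -0.01 over all genes. YMR049C had the lowest value, -0.62 ± 0.20 (adjusted p = 0.406), from ratios of 25.3 and 20.3 at 20 min and 11.1 and 14.6 at 60 min on the spike-in scale. YOL077C gave -0.57 ± 0.35 (adjusted p = 0.585). The highest values were 0.26 ± 0.22 for YHR072W-A and 0.26 ± 0.34 for YLR009W (adjusted p = 0.687 and 0.813).

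RNA left in the unlabeled fraction after a pulse is mostly older RNA, and cultures without 4sU give the same fraction with nothing to remove. Of the 53 genes, 52 were lower in unlabeled RNA with 4sU than without, where 85.1% of all genes were lower. The member median of -2.59 was close to the -2.62 of all genes, but single members ran from -5.43 to -0.92. YDL014W, at -0.92 (adjusted p = 0.111), was the one not called, and it is named after its value was seen.

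YHR196W measured 247 and 429 at 20 min and 298 and 601 at 60 min without 4sU. With 4sU it measured 12 and 20.4 at 20 min and 3.47 and 5.55 at 60 min, which rests on 6 to 31 reads per library. The groups did not overlap, and the fitted log2 difference was -5.43 ± 0.62 (adjusted p = 6.83e-16). YDR398W gave -5.20 ± 0.62 (adjusted p = 8.51e-15), from 184 to 485 without 4sU and 5.20 to 15.1 with it.

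YLR197W measured 845 and 1277 at 20 min and 725 and 1867 at 60 min without 4sU. With 4sU it measured 330.4 and 883 at 20 min and 396 and 601 at 60 min, so the groups overlapped. Its difference was -1.09 ± 0.45 (adjusted p = 0.0185), and that of YHR089C, from 312 to 1173 without 4sU and 108 to 633 with it, was -1.15 ± 0.47 (adjusted p = 0.0193). Single members thus differed widely in unlabeled RNA after the same pulse, and so did genes at large. In replicate 1 at 20 min the members' log2 ratios of with over without 4sU ran from -5.92 to 0.15. Those of all genes ran from -9.82 to 3.22.

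The order of the members held between replicates here too (r = 0.823 at 20 min and 0.904 at 60 min, across 53 genes). Relative to the median gene, 18 members were higher in all 4 pairs of flasks with and without 4sU, 21 were lower in all 4, and 14 were on both sides. These pairs also came from the 2 replicate cultures, and all genes were not counted in this way. With TMM scaling, which takes out the shift of all genes, 15 members were higher and 19 lower, beside 25.1% and 31.1% of all genes, and YLR197W and YHR089C then lay above 0, at 1.31 and 1.25. The count called on the spike-in scale was 23 without replicate 1 and 51 without replicate 2, beside 39.9% and 78.5% of all genes.

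The fitted labeled to total ratio and the fitted difference in unlabeled RNA are given side by side for the 53 genes. Across them r was 0.158 and rho 0.110, between values whose labeled, total and unlabeled libraries came from the same cultures. YDR398W, among the lowest in unlabeled RNA, had a ratio near that of the typical gene, and YGR128C, with the highest ratio, lay below the members' median in unlabeled RNA.

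**Figure D3:**
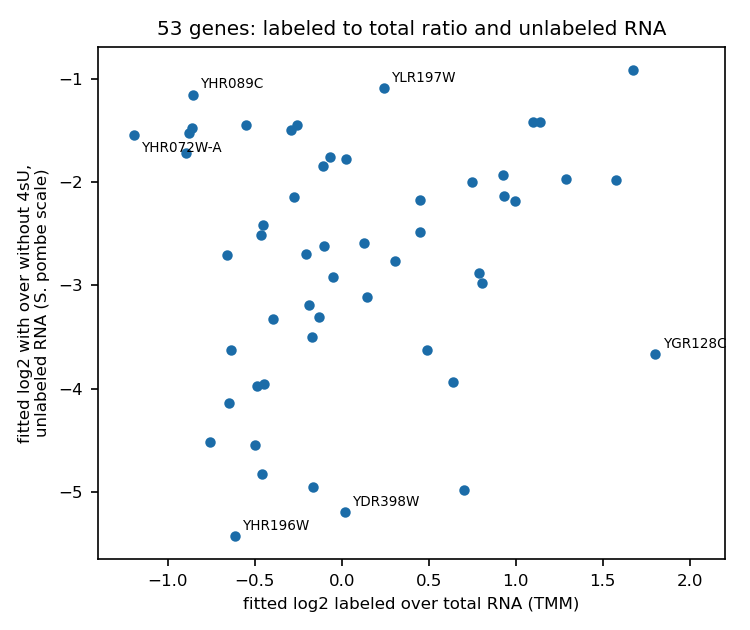
Fitted log2 labeled over total RNA (x, TMM scale) against fitted log2 with over without 4sU in unlabeled RNA (y, S. pombe scale) for the 53 genes, 1 point per gene. The points spread over -1.19 to 1.80 on x and -5.43 to -0.92 on y (r = 0.158).

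Galactose induces the competitor in the study's other experiments, so the 20 and 60 min samples ask whether RNA changed in that window. In labeled RNA with 4sU none of the 53 genes was called (0 by edgeR, DESeq2 and at an unadjusted p under 0.05), beside 0.0989% of all genes higher and 1.25% lower. The member median of -0.43 was that of all genes, -0.43. The replicates differed. In replicate 1 all 53 genes were lower at 60 min, with a median of -1.05, as were 5670 of 6046 genes at large. In replicate 2 the members' median was 0.04 and 33 of them were higher, as were 3090 of 6029 genes at large. Minus the median gene these medians became -0.13 and 0.04.

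YNR053C had the lowest change in labeled RNA. It measured 11129.7 and 8601 at 20 min and 4359.7 and 6630.2 at 60 min, without overlap, for a log2 change of -0.84 ± 0.45 (adjusted p = 0.706). YLR129W gave -0.73 ± 0.45 (adjusted p = 0.706). YGR159C, with 10202 and 8307 at 20 min and 6807 and 11399.6 at 60 min, had the highest value, -0.02 ± 0.45 (adjusted p = 0.977), and YNL112W gave -0.13 ± 0.44 (adjusted p = 0.860).

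In total RNA with 4sU again no member was called (0 by edgeR, DESeq2 and at an unadjusted p under 0.05), beside 0.181% of all genes higher and 1.04% lower. The median was -0.11, with -0.21 over all genes, and the range of -0.81 to 0.66 was wider than in labeled RNA. YNR053C was lowest here as well, with 2454 and 1403 at 20 min and 975 and 1227 at 60 min (-0.81 ± 0.45, adjusted p = 0.780). YDR324C gave -0.57 ± 0.45 (adjusted p = 0.869). YMR049C, with 173 and 133 at 20 min and 220.0 and 264 at 60 min, gave 0.66 ± 0.47 (adjusted p = 0.850), and YMR290C gave 0.61 ± 0.48 (adjusted p = 0.864). The groups of these 4 genes did not overlap, but the differences were within the spread that the fit estimated for all genes. They were named for their extreme fitted changes, so a lack of overlap with 2 libraries a group adds no support. The same holds for single genes without overlap in the other comparisons over time. The share of all genes without overlap was not counted.

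In unlabeled RNA with 4sU, 16 members were lower at 60 min on the spike-in scale, beside 30.5% of all genes, and this direction turned with TMM scaling, where 9 members were higher and none lower, beside 3.58% of all genes higher. The member median was -0.81 and that of all genes -1.16, so the typical member lay above the typical gene while both were below 0. The fit of this fraction alone called 0 members and 1.04% of all genes lower (at an unadjusted p under 0.05, 10 members and 19.3% of all genes). DESeq2 called 17 members and 35.3% of all genes. Single libraries decided the count. It was 0 without replicate 1 at 60 min and 1 without replicate 2 at 20 min, beside 1.63% and 3.46% of all genes. It was 30 without replicate 1 at 20 min and 13 without replicate 2 at 60 min, beside 53.1% and 24.9% of all genes.

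YNR053C fell from 55.6 and 125 to 19.1 and 36.5 (-1.69 ± 0.49, adjusted p = 0.00711), and YDR324C from 43.0 and 113 to 19.6 and 33.3 (-1.55 ± 0.49, adjusted p = 0.0133). The groups of both genes were free of overlap, which adds no support for genes named for their extreme values. YNL112W measured 143 and 322 at 20 min and 229.9 and 313 at 60 min (0.23 ± 0.45, adjusted p = 0.693), and YCL059C gave -0.08 ± 0.48 (adjusted p = 0.923).

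In total RNA without 4sU the members' values over time lay mostly above 0. No member was called by edgeR or DESeq2, beside 0.0824% of all genes called higher by edgeR. At an unadjusted p under 0.05, 3 members were higher with edgeR and 4 with DESeq2, without a share of all genes at that threshold. Yet the median of the members was 0.49 and that of all genes 0.05, and 50 of the 53 fitted changes were positive. By replicate 46 and 52 members were positive, beside 2529 of 5853 and 3945 of 5818 genes at large. Both replicates showed the shift. The median was 0.35 in replicate 1 and 0.68 in replicate 2, or 0.47 and 0.44 above the median gene. In single replicates 49 and 51 members lay above the median gene, beside 2926 of 5853 and 2909 of 5818 genes at large. In both, 48 members did, and all genes were not counted in this way. With TMM scaling 4 members were higher, beside 1.19% of all genes.

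YMR290C measured 60.4 and 51.6 at 20 min and 170.3 and 103 at 60 min, without overlap (1.29 ± 0.59, adjusted p = 0.934). YMR049C measured 89.6 and 60.2 at 20 min and 211 and 134 at 60 min, also without overlap (1.21 ± 0.59, adjusted p = 1). The lowest were YNR053C, with 1808 and 927 at 20 min and 1239 and 1042 at 60 min (-0.26 ± 0.56, adjusted p = 1), and YLR009W (-0.20 ± 0.57, adjusted p = 1), whose groups overlapped. These 2 libraries a group left standard errors of 0.56 to 0.59 for the 4 named genes.

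The unlabeled fraction of the same cultures without 4sU, prepared separately from the same RNA, was compared after the other results were seen. No member was called (0 by edgeR, DESeq2 and at an unadjusted p under 0.05), beside 0.115% of all genes called higher. With TMM scaling 2 members were higher, beside 1.12% of all genes. The member median was 0.41 and that of all genes -0.13. In replicates 1 and 2 the members' medians were 0.60 and 0.42 above the median gene. Above it lay 51 and 53 members, beside 2949 of 5900 and 2937 of 5875 genes at large. In both replicates 51 of 53 members did, and all genes were not counted in this way. The total and unlabeled libraries of a flask share its RNA, so the fractions repeat the preparation and not the culture.

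**Figure D4:**
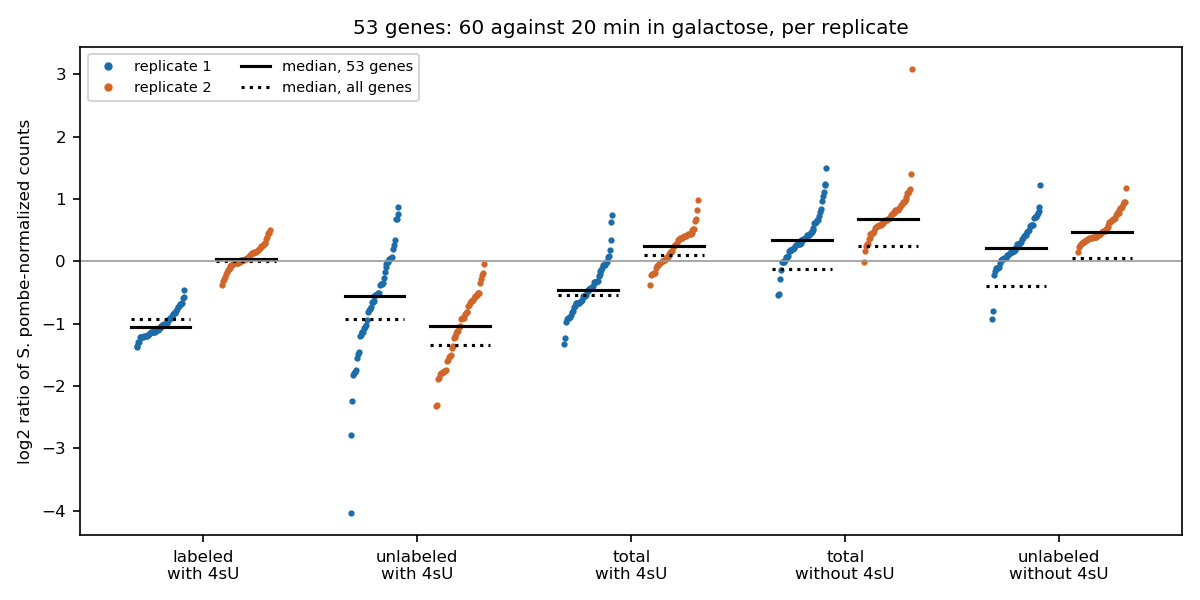
Log2 ratio of S. pombe-normalized counts at 60 over 20 min for the 53 genes (points) in 5 kinds of RNA, by replicate; solid bars are the medians of the 53 genes and dotted bars those of all genes. The members' medians lay 0.42 to 0.60 above all genes in total and unlabeled RNA without 4sU, 0.36 and 0.30 above them in unlabeled RNA with 4sU, and between -0.13 and 0.13 of them in labeled and total RNA with 4sU.

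Total RNA with 4sU was then compared with total RNA without it. With both times together, 7 of the 53 genes were higher with 4sU and none lower, beside 3.49% of all genes higher. All 53 fitted differences were positive, a count without a share of all genes. The median was 0.51, with 0.22 over all genes. With the replicate as a block, which the shared cultures allow, 16 members were higher, beside 6% of all genes. DESeq2 called 13, beside 4.09% of all genes. The count was 25 without replicate 1, beside 11.7% of all genes, and 0 without replicate 2, beside 0.544%, all of them higher.

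YOL077C measured 61.5 and 60.8 at 20 min and 133 and 104 at 60 min without 4sU. With 4sU it measured 137 and 195 at 20 min and 211 and 256 at 60 min. The groups did not overlap, and the log2 difference was 1.20 ± 0.27 (adjusted p = 0.000677). YHR088W rose by 1.02 ± 0.28 (adjusted p = 0.0105), from 21.5 to 75.2 without 4sU to 88.4 to 111 with it. The smallest differences were 0.17 ± 0.26 for YNL207W (adjusted p = 0.783), which measured 192 to 328 without 4sU and 250.1 to 405 with it, and 0.19 ± 0.26 for YDR324C (adjusted p = 0.764).

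The difference was then taken at each time, a test added after the data were seen. At 20 min 2 members were called, YHR088W at 1.55 ± 0.41 (adjusted p = 0.0142) and YOL077C at 1.44 ± 0.39 (adjusted p = 0.0190), beside 1.15% of all genes, and 35 members were higher at an unadjusted p under 0.05, as were 13.1% of all genes. All 53 genes were higher with 4sU in both replicates, with medians of 0.76 and 0.88. Above the median gene lay 52 members in both replicates, and all genes were not counted in this way. Of genes at large, 4276 of 5840 were higher in replicate 1 and 4685 of 5786 in replicate 2. With the replicate as a block 14 members were higher, beside 3.26% of all genes. The count of 2 became 9 without the library without 4sU of replicate 1, and 0 without that of replicate 2, beside 2.95% and 0.659% of all genes. It was 1 and 0 without the libraries with 4sU of replicates 1 and 2, beside 0.61% and 0.857% of all genes.

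At 60 min no member was called by edgeR or DESeq2, beside 0.676% of all genes called higher by edgeR. At an unadjusted p under 0.05, 4 members were higher with each tool, without a share of all genes at that threshold. The medians were -0.05 in replicate 1 and 0.35 in replicate 2, and these were 0.09 and 0.06 above the median gene. Whether the effect of 4sU differed between the times was tested as an interaction. No member was called by edgeR or DESeq2, beside 0.0165% of all genes called lower by edgeR. At an unadjusted p under 0.05, 1 member was lower with edgeR and 4 with DESeq2, without a share of all genes at that threshold. All 53 values were below 0, with a median of -0.65, and the share of all genes below 0 is not given beside them. The median over all genes was -0.31, so the typical gene was below 0 too.

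The time comparison without 4sU and the 4sU comparison at 20 min share the total RNA libraries without 4sU at 20 min, and among the 8 total RNA libraries these held the members' lowest shares of all counts. The share was 0.480 and 0.496% in those 2 libraries, 0.698 and 0.727% with 4sU at 20 min, 0.783 and 0.749% without 4sU at 60 min and 0.779 and 0.908% with 4sU at 60 min. The members' normalized counts summed to 22705 and 15108, against 23911 to 36848 in the other 6. For 25 of the 53 genes both libraries lay below all 6 others, as they did for 13.4% of all genes. The cause was not tested.

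**Figure D5:**
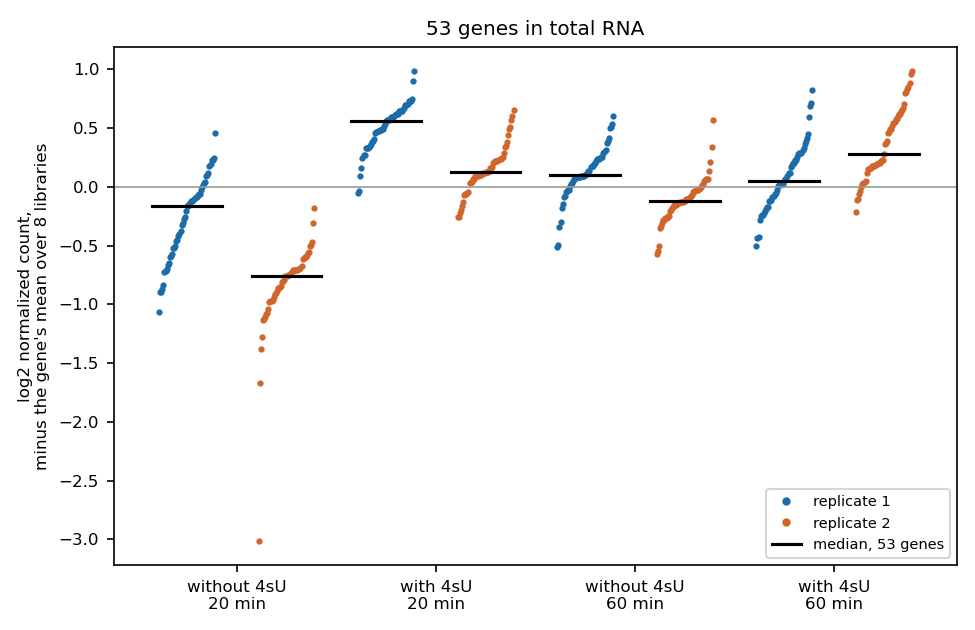
Log2 normalized count of the 53 genes in the 8 total RNA libraries, each gene centred on its own mean over the 8; bars are medians. The medians were -0.16 and -0.76 without 4sU at 20 min, where 41 and 53 genes lay below their mean. They lay between -0.12 and 0.56 in the other 6 libraries. Of these, replicate 2 without 4sU at 60 min, at -0.12, also had 41 genes below their mean. On this scale replicate 1 without 4sU at 20 min thus lay close to that library.

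Other genes of ribosome synthesis were compared from lists written from general knowledge, without an annotation to check them. In total RNA without 4sU, the 85 further ribosome biogenesis genes had a median change with time of 0.55, the 8 RNA polymerase I genes 0.44 and the 134 ribosomal protein genes 0.38, and no gene of these lists was called by edgeR (4, 0 and 1 higher at an unadjusted p under 0.05). In unlabeled RNA without 4sU the medians were 0.41, 0.35 and -0.08. The replicates of the ribosomal protein genes differed there, with medians of -0.15 and 0.24 relative to the median gene in replicates 1 and 2. For 4sU in total RNA the medians were 0.56, 0.57 and 0.38, with 11 of 85, 2 of 8 and 3 of 134 genes called higher and none lower.

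Ribosomal protein genes differed from the assembly factors most in unlabeled RNA with against without 4sU. Their median was -0.70, with 32 of 134 genes lower, whereas the 53 factors had -2.59, the further biogenesis genes -2.88 with all 85 lower and the RNA polymerase I genes -2.21 with all 8 lower. In the labeled to total ratio the medians of the further biogenesis genes, the RNA polymerase I genes and the ribosomal protein genes were 0.09, -0.01 and -0.17. Of these, 35 of 85, 4 of 8 and 47 of 134 were higher, and 22, 4 and 63 were lower. In labeled RNA over time none of their genes was called by edgeR (0 also at an unadjusted p under 0.05), with medians of -0.41, -0.39 and -0.21.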

How the data were processed

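Labeled, unlabeled and total RNA of W303 diploid yeast was depleted of ribosomal RNA and sequenced from directional libraries. Per the study's methods, the authors mapped paired-end reads to S. cerevisiae R64-1-1 and S. pombe ASM294v2 with HISAT2 2.0.4 and counted them per Ensembl gene, by strand and with multi-mapping reads kept, with featureCounts. One deposited table holds these raw counts. The other holds a normalized signal, each raw count divided by the authors' factor, the S. pombe reads over 2000000. Reads from repeated or overlapping genes are uncertain.

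Counts were tested with edgeR 4.0.16 in R 4.3.3 (quasi-likelihood), taking as library size the S. pombe read totals recovered from the 2 tables, or TMM where labeled and total RNA were compared. Rows above 0 in at least 50% of libraries were kept, and adjusted p-values (Benjamini-Hochberg over all genes, threshold 0.05) are two-sided. The study tested time as its sole term with DESeq2. Here time was tested within a fraction, and that design was an alternative, as were DESeq2 1.42.0, other scalings and filters, the replicate block and left-out libraries. The fits recovered known changes in simulated counts, planted in genes with higher counts and with a set spread. These changes were larger than most changes over time described here. The simulation does not show that changes of that smaller size would be called. Every library was used. No pair of replicates agreed within sampling noise. Per the growth protocol in the labels, one culture was split into the flasks of both times, with and without 4sU. The correlations of same-numbered deviations over 66 pairs of groups had a median of 0.120 (range -0.254 to 0.352), with 36 above 0.1. The 2 libraries a group limit the precision.

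The named genes are, for each comparison, the 2 highest and 2 lowest fitted log2 changes among members averaging 50 normalized counts or more, and the 2 highest and 2 lowest total levels. The group of 53 genes, defined by identifiers, and the lists were chosen with earlier results of these data known. Sequences are not shown, since no reference of this species was used here.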

Additional observations from a re-analysis of the deposited data

Results flagged for a closer look

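In the 4 libraries of labeled RNA without 4sU, the normalized counts of the 53 genes summed to 11581 in replicate 1 at 20 min and to 2167 to 3246 in the other 3. The gap to the next library was 0.885 of the range of the 4, above the critical value of Dixon's test for 4 samples. The same library held 41.4% of its raw counts in the row Q0158, against 16.3% in the lowest of the 4. It was 1 flag among 6 groups of 4 libraries looked at with 2 measures each, where chance flags about 1 group in 20. Without it the members' median log2 difference between labeled RNA with and without 4sU was 6.47 and with it 5.92, and all 53 genes were higher in both. No other test between groups uses it. The correlations of replicate deviations over pairs of groups do include its group. Their lowest value, -0.254, was for that group and unlabeled RNA with 4sU at 20 min.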

How the results depend on the processing

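Of 137 recomputed counts of called members, 109 stayed within 1.5 times the value reported, and these include counts of 0 that stayed 0. Of the others, 14 moved in size or in the share of each direction. A further 7 fell to 0, 5 rose from 0 and 2 turned direction. With TMM scaling the counts became 2 for time in total RNA (2 also with TMM within the fraction), 9 higher for time in unlabeled RNA (5 within the fraction), 4 for time in total RNA without 4sU (5 within the fraction), 2 for time in unlabeled RNA without 4sU, 0 for labeled RNA with against without 4sU, 12 for 4sU in total RNA, 6 for it at 20 min, and 34 for 4sU in unlabeled RNA (15 higher, 19 lower). On the S. pombe scale, which does not compare fractions, all 53 were higher in labeled than in total RNA. For time in unlabeled RNA the fraction alone and time as the sole term gave 0. For 4sU in total RNA DESeq2 gave 13 and, at 20 min, 11. Several of these counts have no share of all genes beside them. Such counts show how the number of members moved and not an excess over all genes. The replicate block gave 16 and, at 20 min, 14, and moved no other count by over 1.5 times. Leaving out libraries or replicates gave 0 to 30 members for time in unlabeled RNA, 0 to 25 for 4sU in total RNA, 0 to 9 for it at 20 min and 23 to 51 for 4sU in unlabeled RNA. The cause was not tested. Leaving out whole replicates could be fitted for 4sU only, since other designs then have no residual degrees of freedom; leaving out single libraries, TMM within the fraction, and the tests at single times, of their difference and of unlabeled RNA without 4sU were chosen after seeing the data.

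Of 396 recomputed log2 values of named members 28 changed sign. TMM scaling gave, over time in labeled RNA, 0.41 for YGR159C and 0.31 for YNL112W (0.39 and 0.29 within the fraction), and over time in unlabeled RNA 1.11 for YCL059C (1.16 within the fraction). For 4sU it gave -0.17 for YLR175W and -0.071 for YLR129W in labeled RNA, -0.024 for YNL207W and -0.033 for YDR324C in total RNA, and 1.31 for YLR197W and 1.25 for YHR089C in unlabeled RNA. On the S. pombe scale the labeled to total values were 1.89 for YHR072W-A and 2.2 for YPL211W. With time as the sole term, YMR049C and YMR290C gave -0.13 each in total RNA and YNL112W -0.10 in unlabeled RNA. Without single libraries, the change over time ran from -0.44 to 0.30 for YGR159C and from -0.44 to 0.12 for YNL112W in labeled RNA, from -0.062 to 0.56 for YLR009W in the labeled to total ratio, from -0.66 to 0.30 for YNR053C and from -0.63 to 0.36 for YLR009W in total RNA without 4sU, and from -0.24 to 0.93 for YNL112W and from -0.67 to 0.94 for YCL059C in unlabeled RNA. In unlabeled RNA with 4sU single members had as few as 1 read in a library, which limits their values there.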
